A study of Mus musculus with 2 samples.

Results

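Keratins are the intermediate filament proteins of epithelial cells, and the keratin family was described here in skin tumours of wild-type and P2ry6-/- mice. Members were the non-control probes whose gene name in the array files is Krt followed by digits and at most 1 letter. That gave 52 genes on 68 probes, of 37070 gene names on 56594 analysed probes. The tumours had been induced on the backs of male mice by ultraviolet B (UVB) light, starting at 2 months of age, at 180 mJ/cm2 in the first 10 weeks, raised weekly by 10 mJ/cm2 to reach 300 mJ/cm2 in week 22, a dose then held until week 40. One group was P2ry6+/+ (wild type) and the other P2ry6-/-, which lacks the receptor for the nucleotide UDP, and both groups had the same irradiation. Each genotype had 1 RNA sample on 1 single-colour Agilent array. The number of tumours or mice behind each sample, the strain background and the part of P2ry6 that was removed are not given in the sources used here. Unirradiated skin was not analysed here. In whole tumours, fewer cells of a type and less RNA per cell cannot be told apart.

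A keratin filament is built from pairs of 1 acidic type I and 1 basic type II protein, so the genes are usually expressed as partners. In skin, basal keratinocytes make Krt5 with Krt14, cells that leave the basal layer switch to Krt1 with Krt10, and wounded, inflamed or hyperproliferative epidermis adds Krt6a, Krt6b, Krt16 and Krt17. Krt8 and Krt18 belong to simple epithelia and can appear in skin carcinomas, and a large set of keratins is kept for the hair shaft and the root sheaths around it. The type I genes lie together on mouse chromosome 11 and the type II genes, with the type I gene Krt18, on chromosome 15.

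The letters just upstream of the start are shown for 3 keratins, 1 higher and 2 lower by 2-fold or more in the comparison below. The letters are shown because most of the 35 keratin genes whose upstream letters were available share 1 feature there. These are the 250 bases before the gene start from RefSeq (build GRCm38.p6, minus strand in each case, 5′ to 3′), at chr15:101712906-101713155 for Krt5, chr11:99389365-99389614 for Krt10 and chr15:101954288-101954537 for Krt78, and the capitals mark the letters ATAAA within the last 50 bases.
Krt5: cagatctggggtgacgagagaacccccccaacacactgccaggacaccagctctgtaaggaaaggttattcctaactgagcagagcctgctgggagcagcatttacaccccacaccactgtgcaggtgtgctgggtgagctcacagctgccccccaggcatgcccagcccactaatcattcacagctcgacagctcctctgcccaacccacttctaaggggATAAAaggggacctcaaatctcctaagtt
Krt10: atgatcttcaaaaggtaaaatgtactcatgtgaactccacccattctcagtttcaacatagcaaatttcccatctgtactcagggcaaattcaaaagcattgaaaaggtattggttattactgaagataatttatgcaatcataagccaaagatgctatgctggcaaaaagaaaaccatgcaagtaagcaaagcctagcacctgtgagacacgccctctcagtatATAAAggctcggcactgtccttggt
Krt78: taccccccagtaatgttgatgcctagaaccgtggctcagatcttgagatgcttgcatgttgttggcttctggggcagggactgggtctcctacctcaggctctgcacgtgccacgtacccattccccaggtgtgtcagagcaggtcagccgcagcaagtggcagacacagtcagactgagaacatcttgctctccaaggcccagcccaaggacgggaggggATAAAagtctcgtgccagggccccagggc
The promoter table held 35 of the 52 keratin genes. On the strand of the gene, ATAAA stood in the last 50 bases before the start in 23 of those 35 (65.7%), against 6.98% of all 27025 genes of the table. Krt5, which was higher on the knockout-labelled array, and Krt10 and Krt78, which were lower, all held it, but these genes were picked for display. Krt8, the other keratin higher by 2-fold or more, did not hold it. Over the whole 250 bases and on both strands, ATAAA stood in 82.9% of the 35 keratins against 38.1% of all genes. TGANTCA, the letters of an AP-1 site, stood in 1 of the 35 keratins, Krt13 (2.86% against 6.87% of all), and GGGCGG, a GC box, in 2, Krt7 and Krt75 (5.71% against 32.9%). GCCNNNGGC, the letters of an AP-2 site, stood in Krt7, Krt9, Krt18 and Krt42 (11.4% against 13.6%). These are letter matches in a short window and do not show binding.

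Of the 52 keratin genes, 34 were measured on both arrays, 9 on the wild-type-labelled array alone, 0 on the knockout-labelled array alone and 9 on neither. Measured means that most spots of a probe were marked well above background by the scanner software. Levels are log2 signals after background correction by the scanner software, taken relative to the 75th percentile of that array, and a difference is the knockout-labelled minus the wild-type-labelled level. With 1 array per genotype no test could be run, and the differences describe these 2 arrays. Technical error is given by the scanner software's own error model (a standard error, SE, of 0.20 log2 units for a bright probe) and by the spread of differences between probes of 1 gene over the whole array, an SD of 0.38. P2ry6 was 2.44-fold higher on the array labelled as its knockout, so the arrays are named by their labels and each direction rests on them. No spot was saturated, and the arrays measured 57.8% and 57.9% of their non-control spots. The labelled tissue was checked on Trp63, Perp, Sfn, Cdh1, Dsg3, Col17a1, Itgb4 and Itga6, which keratinocytes express, Trp63, Col17a1, Itgb4 and Itga6 mainly in the basal layer: all 8 were measured on both arrays and 0 were 2-fold apart, with a median of −0.27 and a summed signal of 546071 units (wild-type label) and 401280 units (knockout label). Markers of other cells differed too. The 6 sebaceous gland markers were all lower by 2-fold or more (summed signal 23839 and 1738 units), where 5.04% of all measured genes were. Of 6 macrophage markers 2 were higher by as much (5769 and 10934 units), where 4.8% of all were. Of 6 fibroblast markers (92186 and 74805 units) and 5 endothelial markers (1979 and 2593 units) 0 were 2-fold apart. Of 6 skeletal muscle markers 2 were measured on both arrays (149 and 437 units for the list): Acta1 differed by 3.84 and Tnnt3 by 0.36. Myh4 and Myl1 were measured with the wild-type label only, Tnnc2 with the knockout label only and Ckm on neither array. The part of these cells in the keratin values was not tested.

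Differentiation and hair keratins made up most of the members that were lower with the knockout label, and a basal and a simple epithelial keratin were higher. Of the 34 measured on both arrays, 10 (29.4%) were lower by 2-fold or more with the knockout label, where 5.04% of all 19754 measured genes were, and 2 (5.88%) were higher by 2-fold or more, where 4.8% of all were. The median difference was −0.40 for the keratins and −0.06 for all genes. The 10 lower genes were Krt1, Krt10, Krt12, Krt23, Krt31, Krt71, Krt75, Krt78, Krt84 and Krt86, and the 2 higher genes were Krt5 and Krt8. Of all 52 keratins 17.3% were measured with the wild-type label only, against 2.92% of all genes, and 0 with the knockout label only, against 2.68% of all genes. Under each of 10 other ways of processing, 6 of the lower genes (Krt1, Krt10, Krt23, Krt71, Krt75 and Krt78) and, of the higher genes, Krt5 were still past 2-fold. Krt76 (−0.98) lay just inside the 2-fold line, and Krt31 (−1.11) was the nearest lower gene past it.

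**Figure D1:**
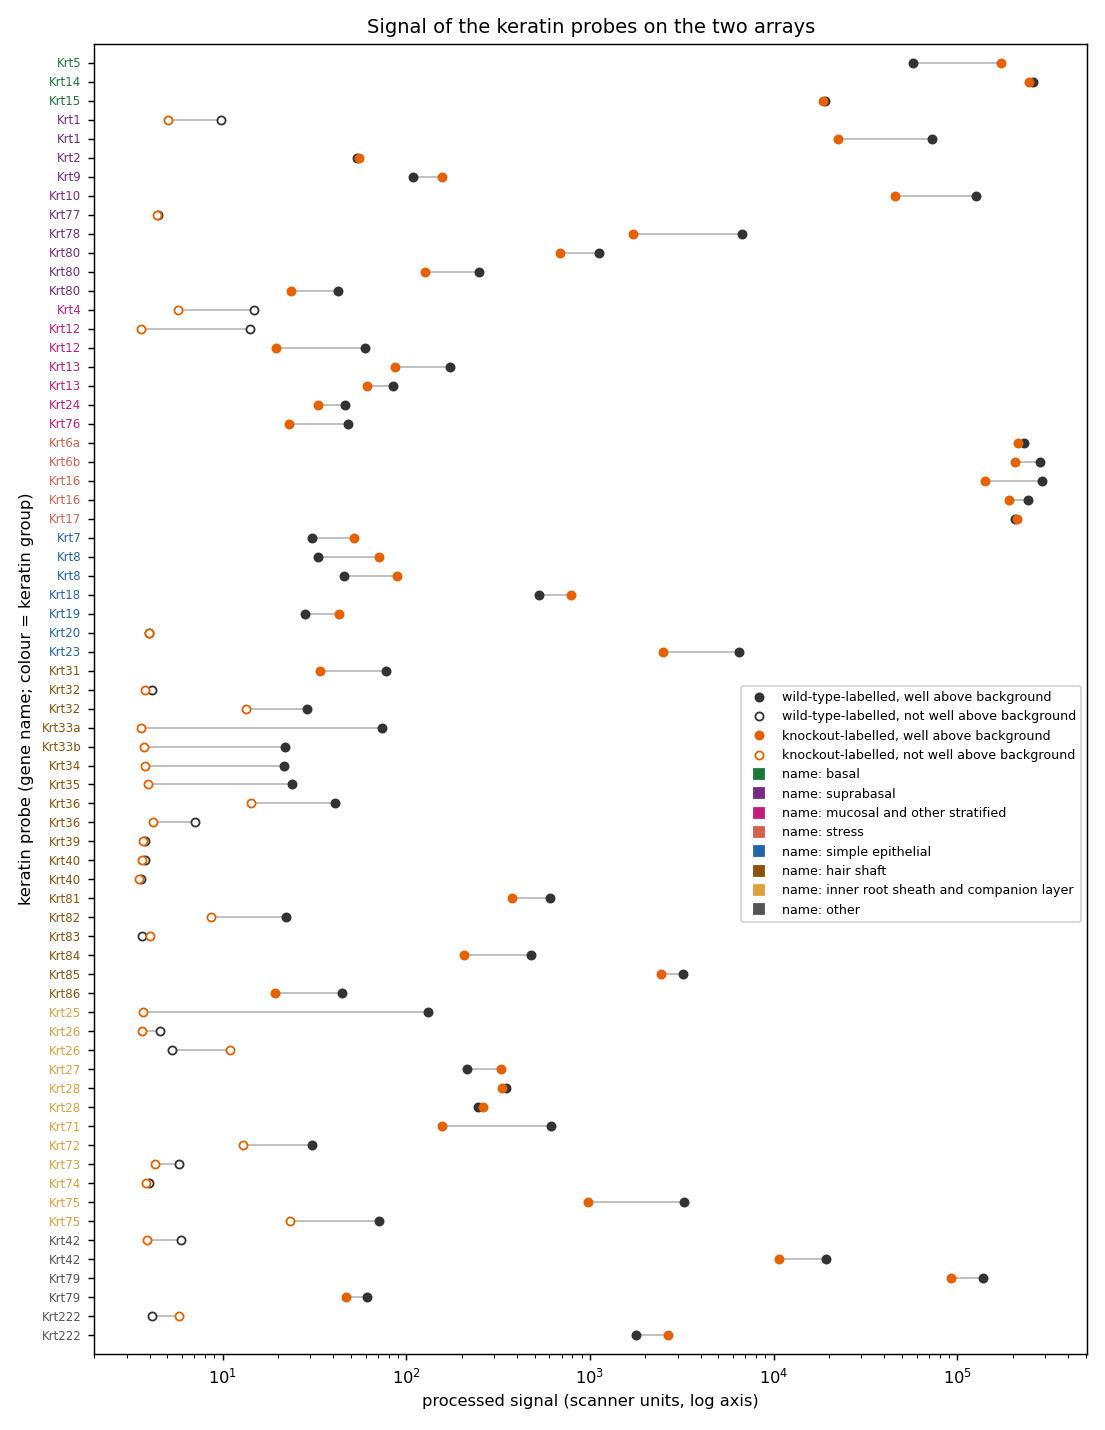
Processed signal of all 68 keratin probes on the array with the wild-type (dark) and the knockout (orange) label, on a log axis, with 1 line per probe and names coloured by keratin group. Open circles were not well above background; Krt5 lies to the right on the knockout-labelled array while Krt1, Krt10 and Krt78 lie to the left, and most hair keratins are open on the knockout-labelled side.

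Among the basal keratins, Krt5 was higher on the knockout-labelled array and its partner Krt14 was nearly level. The Krt5 probe read 57660 signal units with the wild-type label and 171998 with the knockout label. That is a difference of 1.66 ± 0.20 (SE of the scanner's error model, 1 probe), or 3.16-fold. Krt14, the type I partner of Krt5, read 257780 and 245396, a difference of 0.01 ± 0.20. The gap between the partners was 1.65 log2 units. Krt15, a type I keratin of basal cells and of the hair follicle bulge, read 19009 and 18579, a difference of 0.05. The signs of Krt14 and Krt15 depended on the scale: they were 0.34 and 0.29 after loess normalization and −0.51 and −0.47 against spike-in controls, a scale that lowers every difference by 0.52. On those scales Krt5 differed by 1.96 and 1.14, so it was past 2-fold on each. Trp63, the transcription factor of the basal layer, differed by 0.48 ± 0.19 (SD, n = 4 probes).

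Among the suprabasal keratins of the epidermis, Krt1, Krt10 and Krt78 were lower by 2-fold or more with the knockout label. Of 7 members 6 were measured on both arrays, with 4 below 0, 2 above 0 and a median of −1.06. Krt1 read 72860 units (wild-type label) and 22415 units (knockout label), a difference of −1.62 ± 0.20 (SE of the error model), or 3.06-fold lower. Krt10, its type I partner, read 126141 and 46018, a difference of −1.37 ± 0.20, or 2.58-fold lower. The gap between the partners was −0.25, against 1.65 in the basal pair. Krt78, a type II keratin of stratified epithelia, lay lowest of the measured keratins, level with the root sheath keratin Krt71: it read 6758 and 1708 units, a difference of −1.90 ± 0.20, or 3.73-fold lower. Relative to Krt14 the Krt10 signal was 2.61-fold lower on the knockout-labelled array, and relative to Krt5 the Krt1 signal was 9.70-fold lower.

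The remaining suprabasal members were smaller in size or went the other way. Krt80, a type II keratin of differentiating epithelia, differed by −0.76 over 3 probes that lay at −0.62, −0.89 and −0.77. Krt9, the keratin of palm and sole epidermis, read 109 and 156 units, a difference of 0.60, and Krt2, a keratin of the uppermost living layers, read 53.6 and 55.3 units, a difference of 0.13 that became −0.39 against the spike-in controls. Krt77 was not well above background on either array. A second Krt1 probe, placed by the array files on the opposite strand to the first, was not well above background on either array (9.73 and 5.06 units) and does not enter the value.

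**Figure D2:**
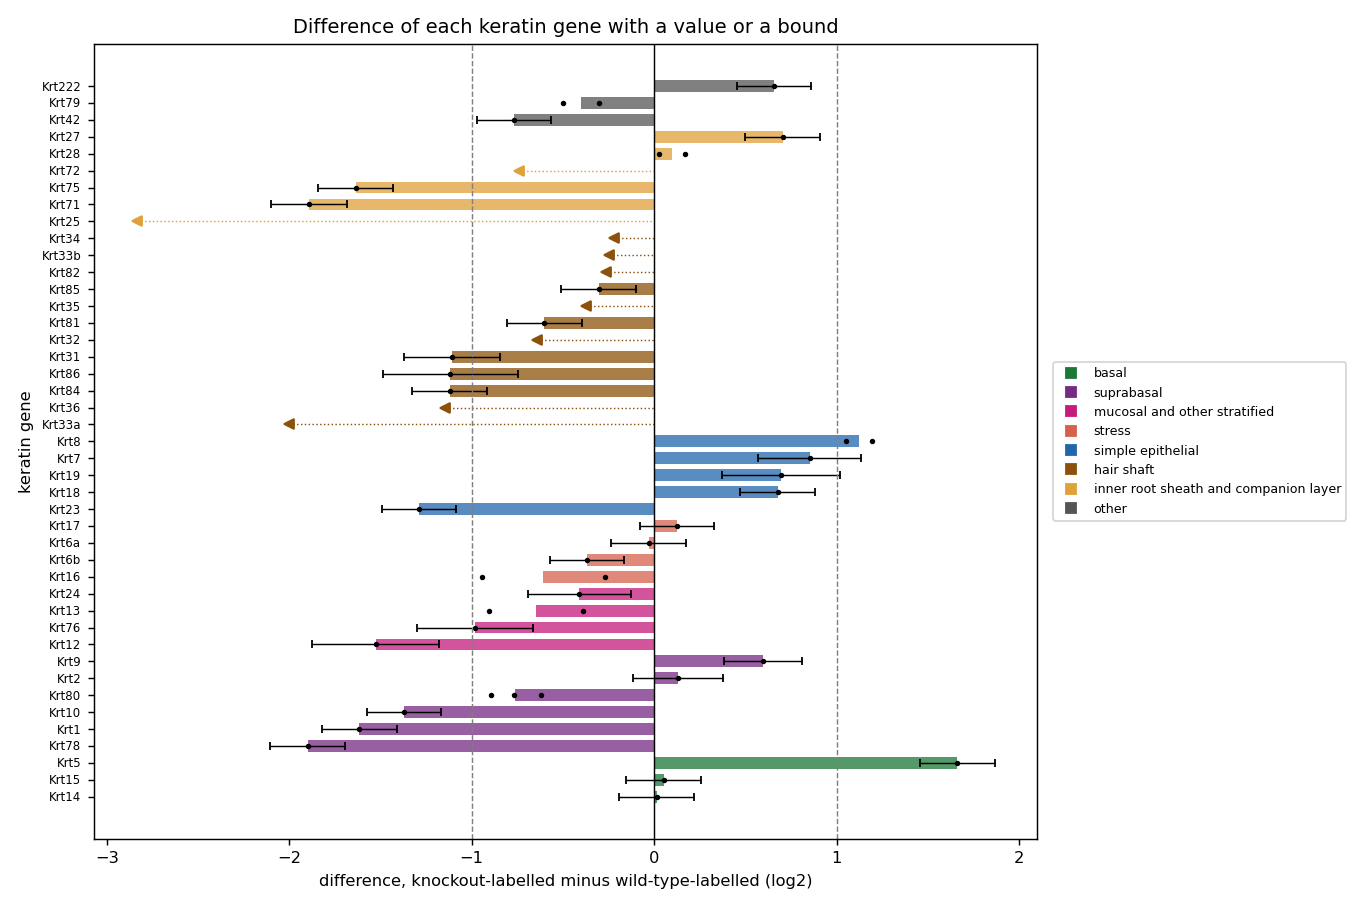
Difference of each keratin gene (log2, knockout-labelled minus wild-type-labelled) as a bar coloured by keratin group, with dots for its probes and, for single probes, the SE of the scanner's error model; arrowheads are bounds for genes that only the wild-type-labelled array measured, and dashed lines mark 2-fold. Krt5 stands at 1.66 and Krt78 at −1.90, and all arrowheads point left, towards lower values with the knockout label.

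Stress keratins, which epidermis adds when it is wounded or grows fast, had 0 of 4 members 2-fold apart in either direction, and a median of −0.20 that became 0.12 after loess normalization. All 5 of their probes were among the 100 brightest on each array. Krt6a read 231797 and 214105 units, a difference of −0.03, and Krt17, which partners the Krt6 proteins, read 206311 and 212203, a difference of 0.13. Krt6b read 282770 and 206563 units, a difference of −0.37. The largest difference was that of Krt16, at −0.61 ± 0.47 (SD, n = 2 probes): the probes read 290211 and 142306 units (−0.94) and 244027 and 190561 units (−0.27). The 2 probes lie side by side on chromosome 11 (mm9, 100107408 to 100107467 and 100107491 to 100107550), and the gap between them was larger than any of the other 3 stress keratin differences. After loess normalization Krt6a and Krt17 differed by 0.29 and 0.44, and against the spike-in controls by −0.55 and −0.40.

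The bright keratins were also set against other bright probes. Among the 1036 probes above the 98th percentile of signal on both arrays, differences of 2-fold or more were few (5 higher and 19 lower with the knockout label), and the SD of their differences was 0.34. Krt5, Krt1 and Krt10 were among these, and ranked 2, 4 and 7 by size of difference. Krt14, Krt6a and Krt17 ranked 1001, 965 and 734. The highest signals of any probe on the arrays were 372463 and 346492 units, so Krt14, Krt6a, Krt6b, Krt16 and Krt17 lay near the top of the range. Whether this place in the range limited their differences was not tested.

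**Figure D3:**
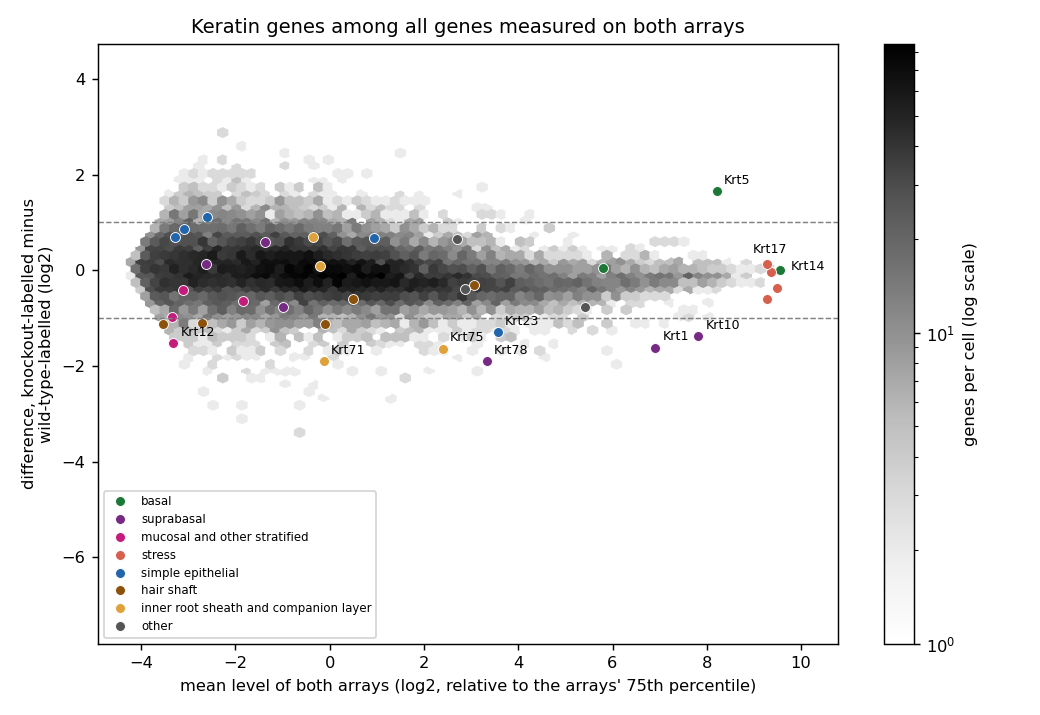
Difference (log2, knockout-labelled minus wild-type-labelled) against mean level of both arrays for all 19754 measured genes (grey cells, darker for more genes) with the 34 measured keratins coloured by group. Krt5, Krt1 and Krt10 lie outside the narrow band of other bright genes, while Krt14 and the stress keratins lie within or near it at the right edge.

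Simple epithelial keratins went in both directions. Of 6 members 5 were measured on both arrays, with 4 above 0, 1 below 0 and a median of 0.69: Krt8 was past 2-fold and higher, and Krt23 was past it and lower. Krt8, the type II keratin of simple epithelia, differed by 1.12 ± 0.10 (SD, n = 2 probes), or 2.18-fold. Its probes read 32.8 and 70.7 units, and 45.6 and 89.1 units, so both were dim, and the difference fell inside 2-fold under normexp background correction (0.55) and against the spike-in controls (0.60). Krt18, its type I partner, read 525 and 791 units, a difference of 0.68 ± 0.20 (SE of the error model). Krt7, a type II keratin of glands and ducts, read 30.5 and 51.8 units (0.85), and Krt19, a type I keratin that is found without a fixed partner, read 28.1 and 42.9 (0.69). Krt20, a keratin of gut epithelium and Merkel cells, was not well above background on either array, at 3.95 units on each. Krt23, a type I keratin whose expression varies among epithelia, was lower: it read 6439 and 2485 units, a difference of −1.29 ± 0.20, or 2.44-fold lower. The median of 0.69 became −0.31 when dim probes were left out, since that kept Krt18 and Krt23 alone, so the direction of the group depends on which members are kept.

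Other cells known to express simple keratins were read from marker lists. Of 6 Merkel cell markers, Atoh1, Isl1, Insm1 and Rab3c were not well above background on either array, Sox2 only with the wild-type label, and the 1 measured on both, the mechanosensitive channel gene Piezo2, differed by 0.39. The summed signal of that list was 201 and 224 units. Of 6 gland and secretory epithelium markers 3 were measured on both arrays (Aqp5 −0.73, Elf5 −0.76 and Epcam 0.09), Foxa1, Cldn10 and Dcpp1 were on neither, and the summed signal was 4630 and 3177 units.

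Keratins of mucosal and other stratified epithelia gave weak signals. Of 5 members 4 were measured on both arrays and all 4 lay below 0, with a median of −0.81, but 1 alone, Krt12, was past 2-fold. Krt13, a type I keratin of internal stratified epithelia that can mark progression of skin papillomas, read 173 and 87.0 units on 1 probe and 84.6 and 60.8 on the other, a difference of −0.65 ± 0.36 (SD, n = 2 probes). Its type II partner Krt4 was not well above background on either array (14.8 and 5.72 units). Krt76 (−0.98), a keratin of the palate, and Krt24 (−0.41) read under 50 units on both arrays. Krt12, the keratin of the cornea, read 59.2 and 19.4 units, a difference of −1.53 ± 0.35 (SE of the error model) that became −0.54 under normexp correction.

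Of the 9 hair and root sheath keratins that both arrays measured, 7 lay below 0 and 2 (Krt27 and Krt28) above it. The group covers 15 hair shaft and 9 inner root sheath or companion layer genes. Both arrays measured 9 of these, and 6 were measured on neither. The wild-type-labelled array alone measured 9, against 2.92% of all genes, and the knockout-labelled array alone 0, against 2.68% of all genes. Of the 9 measured on both, 5 were past 2-fold and lower (5.04% of all genes were) and 0 past it and higher (4.8% of all). The median was −1.11, or −0.53 under normexp correction. Krt71, a type II keratin of the inner root sheath, read 612 and 155 units, a difference of −1.89 ± 0.21 (SE of the error model), or 3.71-fold lower. Krt75, the type II keratin of the companion layer around the root sheath, read 3231 and 980 units, a difference of −1.64 ± 0.20, or 3.11-fold lower. Its second probe, at 71.0 and 23.2 units, was not well above background with the knockout label, and its readings lay in the same direction. Krt84, a keratin of nail and tongue epithelium as well as hair, read 476 and 206 units, a difference of −1.12 ± 0.21 that was −0.99 under normexp correction.

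The type I inner root sheath keratins, whose genes neighbour each other on chromosome 11, did not share a direction. Krt25 read 132 units with the wild-type label and 3.70 with the knockout label, where it was not well above background, and was at least 7.14-fold lower. A bound sets the level on the bright array against the lowest signal well above background on the other, or the dim probe's own signal where that is higher. Krt27 read 214 and 328 units, a difference of 0.71, and Krt28 differed by 0.10 ± 0.10 (SD, n = 2 probes). Krt26 was not well above background on either array. Of the other genes of this group, Krt72 was at least 1.67-fold lower, and Krt73 and Krt74 were well above background on neither array.

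Most hair shaft keratins gave weak signals. Krt33a, a type I hair keratin, read 73.9 units (wild-type label) and 3.58 units (knockout label), at least 4.0-fold lower, and Krt36 read 40.8 and 14.2, at least 2.21-fold lower. Krt32, Krt33b, Krt34, Krt35 and Krt82 read between 21.5 and 28.8 units with the wild-type label, and their bounds were under 2-fold. A bound of 2-fold or more was reached by 3 of the 9 keratins that only the wild-type-labelled array measured, against 24.5% of all 1082 such genes. Krt31 read 77.8 and 34.0 units (−1.11 ± 0.26, SE of the error model) and Krt86 read 44.3 and 19.3 (−1.12 ± 0.37). Under normexp correction they differed by −0.53 and −0.33. The array files place the Krt86 probe on the plus strand, opposite to the probes of its keratin neighbours. The strand of the Krt86 gene itself was not available here, so this does not show that the probe misses the gene. Krt39, Krt40 and Krt83 were not well above background on either array.

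Krt81, Krt83 and Krt85 are closely related type II hair keratins. Krt81 read 606 and 377 units (−0.60 ± 0.20, SE of the error model), Krt85 read 3203 and 2446 (−0.30 ± 0.20), and Krt83 read 3.64 and 4.02, not well above background. Krt81 and Krt85 were thus the 2 measured hair shaft keratins with the smallest differences, and how much of either signal came from related transcripts was not tested. Leaving these probes out could not change the count of 10 lower keratins, since none of those is among these genes. The hair median without them was −1.12. The names follow the array files: by its RefSeq accession the Krt83 probe is now assigned to Krt87.

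The keratin-associated proteins, which fill the space between hair keratin filaments, were read from a separate list of 51 genes. Both arrays measured 16 of these, 2 of them past 2-fold and lower (5.04% of all genes were) and 0 past it and higher (4.8% of all), with a median of −0.33. The wild-type-labelled array alone measured 22 of the 51, against 2.92% of all genes, and the knockout-labelled array alone measured 0, against 2.68% of all genes. Krtap10-4 was 2.83-fold lower and Krtap28-13 was 2.73-fold lower, each on 1 probe. The Krtap28-13 signal was weak, at levels of −2.26 (wild-type label) and −3.71 (knockout label), which limits its fold. The largest bound was that of Krtap19-2, at least 7.54-fold lower. The hair regulator gene Foxn1 was 2.38-fold lower, while Hoxc13, which drives hair keratin genes, differed by 0.72 in the other direction, from a level of −1.36 to −0.64.

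Of the keratins outside these groups, 0 were 2-fold apart. Krt79, a type II keratin of the hair follicle opening and the sebaceous duct, differed by −0.40 ± 0.14 (SD, n = 2 probes). Its bright probe read 138806 and 92608 units and alone differed by −0.50. The array files place its dim probe (−0.30) on the opposite strand to the gene, so the mean includes a probe that may not read the gene. The 6 sebaceous gland markers (Awat1, Awat2, Mc5r, Scd3, Elovl3 and Soat1) differed by −6.77 to −1.12 beside it. Krt222, a keratin-like gene, differed by 0.66, from 1790 to 2663 units. Krt42, a type I keratin, differed by −0.77 on 1 probe, at 19209 and 10635 units. Its other probe read 5.93 and 3.85 and was not well above background on either array. How much of the bright probe's signal came from transcripts of related keratins was not tested. The bright Krt42 probe is shown because it alone of the 2 probes of this gene was above background, and its letters are given 5′ to 3′ as in the array files.
Krt42: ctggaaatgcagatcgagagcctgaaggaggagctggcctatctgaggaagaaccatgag

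A further 3 probes carry accessions that RefSeq now assigns to keratins, but other names in the array files, so they are outside the 52 genes. The probe of Krt90 read 221 and 61.1 units, a difference of −1.77. That of the gene now called Krt83 read 94.1 and 50.9 units, a difference of −0.80, and that of Krt88 was not well above background on either array.

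The differences were also set in gene order along the chromosomes. Krt5 (1.66) lies between Krt6a (−0.03) and Krt71 (−1.89), and Krt8 (1.12) lies between Krt78 (−1.90) and Krt18 (0.68). On chromosome 11, Krt10 (−1.37) and Krt12 (−1.53) are neighbours and were both lower, as was Krt23 (−1.29) past the unmeasured Krt20. The run from Krt33a to Krt36 held 7 hair keratins, each lower or measured with the wild-type label only. Of 17 measured type II genes 2 were past 2-fold and higher (4.8% of all genes were) and 6 past it and lower (5.04% of all). Their median was −0.60. Of 17 measured type I genes these counts were 0 and 4 (median 0.01).

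**Figure D4:**
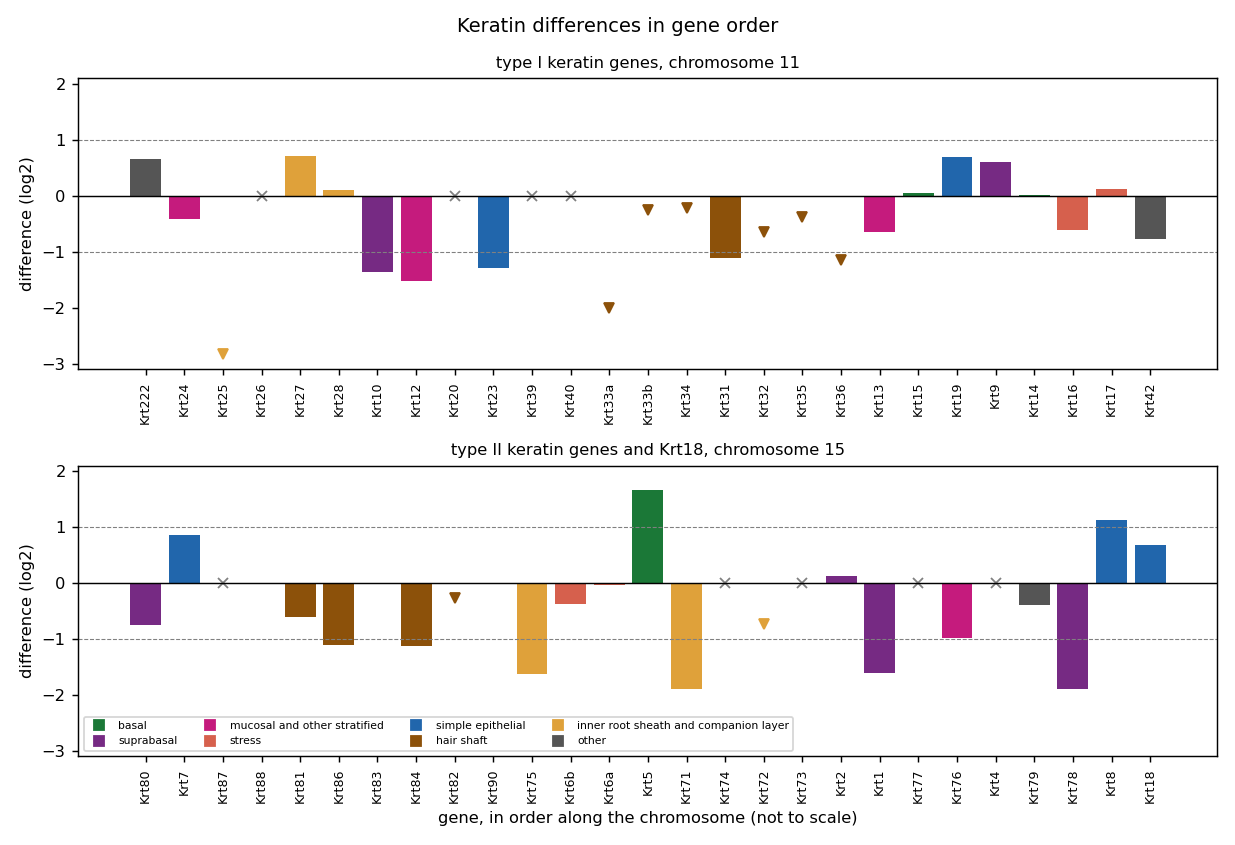
Differences (log2, knockout-labelled minus wild-type-labelled) of keratin genes in their order along chromosome 11 (upper) and chromosome 15 (lower), coloured by keratin group; triangles are bounds and crosses mark genes measured on neither array. Names are current RefSeq symbols, genes with no mark carry another name on the array, and Krt85 is not placed; Krt5 at 1.66 stands between Krt6a and Krt71.

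Genes that anchor or bind keratin filaments were read from a list of their own. Of 15 measured, 5 were past 2-fold and lower (5.04% of all genes were) and 0 past it and higher (4.8% of all), with a median of −0.73. Ppl, the periplakin gene, whose product ties filaments to the cornified envelope, was at −1.24 ± 0.00 (SD, n = 2 probes), and Jup, the plakoglobin of desmosomes, at −1.19 ± 0.29 (SD, n = 3 probes). Rptn, a fused-type S100 protein gene, was at −1.11, and Hrnr, the hornerin of the granular layer, at −1.08. The 3 that lay above 0 were Plec (0.29) and Dst (0.54), which tie filaments to hemidesmosomes at the base of the cell, and Pkp2 (0.73), a desmosome gene. Among 10 other genes measured, of intermediate filament proteins and of a filament-binding protein, 9 were inside 2-fold, with a median of −0.19. The exception was Bfsp1, a lens filament gene (−1.22 ± 0.24, SD, n = 2 probes), and the mesenchymal filament gene Vim differed by −0.13.

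Among genes known to regulate keratin genes, most of them transcription factors, lower values outnumbered higher ones. Of 23 measured, 7 were past 2-fold and lower (5.04% of all genes were), 1 past it and higher (4.8% of all) and 15 inside it, with a median of −0.57. The 4 furthest below 0 were Grhl1 (−1.31), which acts in barrier formation, Foxn1 (−1.25), Klf4 (−1.19) and Klf5 (−1.15). The 1 that was higher was the Wnt effector gene Lef1 (1.13, 1 probe). Its signal was weak, at levels of −3.36 (wild-type label) and −2.23 (knockout label), where the lowest levels well above background were −4.29 and −4.23.

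**Figure D5:**
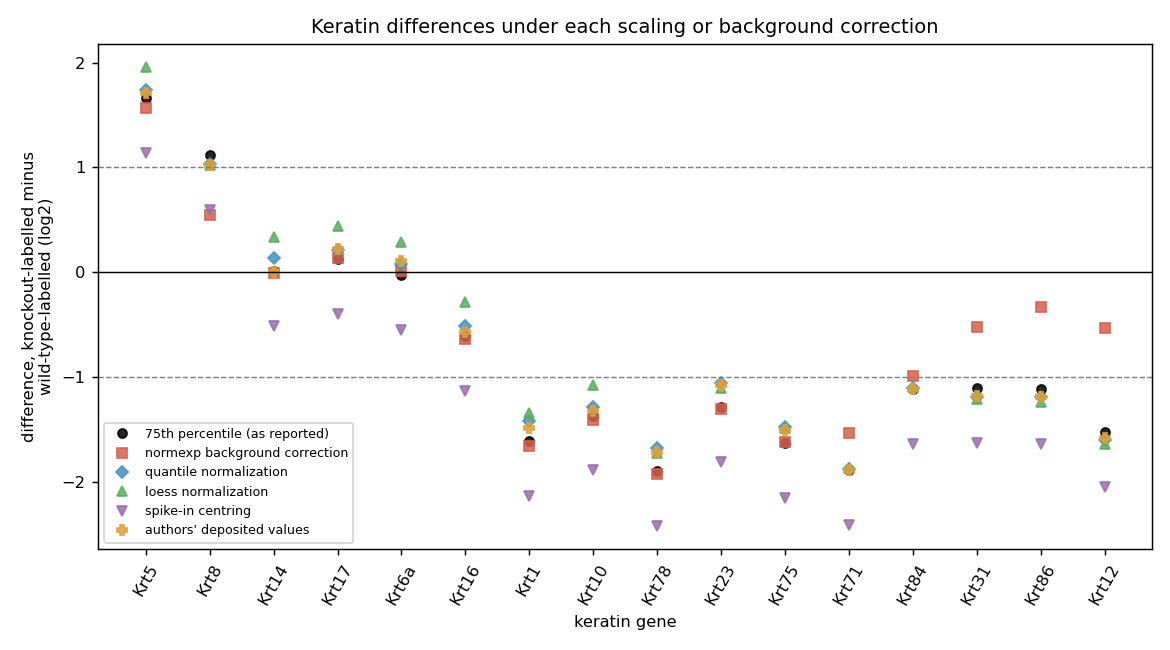
Difference (log2, knockout-labelled minus wild-type-labelled) of 16 keratin genes under the scale used here and 5 other scalings or background corrections, 1 symbol each; dashed lines mark 2-fold. Krt5 stays above 1 and Krt1, Krt10, Krt78, Krt23, Krt75 and Krt71 stay below −1 throughout, whereas Krt8, Krt31, Krt86, Krt12 and Krt84 come inside 2-fold under normexp correction.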

How the data were processed

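Per the labels' protocols, 0.2 µg of RNA was amplified to cRNA carrying the dye Cy3. Per the file headers and the submitters' processing notes, the authors extracted spot intensity with Agilent Feature Extraction 10.7.1.1, with background subtraction and detrending within the array and no scaling between arrays. The authors also deposited log2 values whose medians were 4.97 on both arrays and which correlated with the log2 signal at r = 0.9999 and 0.9997 over 56594 probes; the steps behind them are not given in the sources used here.

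Outlier spots were left out (102 and 105), spots of a probe were averaged, and the array's 75th percentile of log2 signal was subtracted. A gene is the mean of its probes that were well above background on both arrays, by the gene names of the files. At least 2-fold means a difference of 1 log2 unit. The lists, the members and the rule for named genes (every keratin, P2ry6, and up to 4 members of each other list by size) were chosen with earlier results of these data known. Plec, Dst, Pkp2, Vim, Hoxc13, Trp63, Acta1 and the other cell type markers are named outside that rule, after their values were seen. Probe positions are on mm9; promoters are from RefSeq GRCm38.p6. R 4.3.3 with limma 3.58.1 was used for normexp (offset 50), quantile and loess normalization, and Python 3.11.15 for the rest. The gene-level step was tested on simulated data. The simulation treated the same probes as measured on both arrays and used the SD between replicate spots (0.12) as noise, below the 0.38 between probes. It therefore checks the calculation alone, and not weak genes or genes measured on 1 array. With 1 array per group no test was run, and the number of arrays limits the precision.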

Additional observations from a re-analysis of the deposited data

How the results depend on the processing

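No paired analysis was possible because each genotype has 1 array. Of the 34 measured keratins, 6 changed sign under at least 1 of 10 alternatives (Krt2, Krt6a, Krt14, Krt15, Krt17 and Krt28), and none of these was 2-fold apart. Quantile and loess normalization, the authors' deposited values and the brightest probe per gene left counts within 1.5 times of 10 lower and 2 higher. The removal of probes shared between keratins could not change these counts, as it took out no keratin past 2-fold. All these alternatives moved the medians by less than the SD between probes, although the stress median of −0.20 became 0.12 under loess. Normexp correction left 6 lower (2.91% of all genes) and 1 higher (1.87%), and a hair median of −0.53. Centring on 8 spike-in controls shifted each difference by −0.52, giving 16 lower (18.8% of all genes) and 1 higher (1.36%), with medians of −0.93 for all keratins, −0.47 for basal, −1.59 for suprabasal, −0.72 for stress, 0.17 for simple epithelial and −1.63 for hair keratins. The stricter filter on dim probes left 7 of 25 measured keratins lower (4.63% of all genes) and 1 higher (3.46%). The simple epithelial median was then −0.31 and the hair median −0.60. Keeping only keratin probes of 100 units or more was an alternative chosen after seeing the data. It left 7 of 24 lower (5.03% of all genes) and 1 higher (4.8%), with medians of −0.31 and −0.60 again. Other genes were not filtered there, so these shares of all genes still include dim genes. With no filter 19 of all 52 keratins were lower, against 5.71% of all genes. Of the 12 keratins past 2-fold, Krt8, Krt12, Krt31 and Krt86 had signals under 100 units on both arrays, so weak signal limits their folds.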
